A study of Mus musculus with 3 samples.

Results

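Bidirectional coding promoters, stretches of open chromatin shared by the starts of protein-coding genes on opposite strands, were described across 3 ATAC-seq peak lists from mouse epiblast-like cells. ATAC-seq inserts sequencing adapters into accessible DNA, so that pileups of fragments mark open promoters and enhancers. The 3 lists were merged with bedtools on 16 autosomes (1 to 19 other than 6, 8 and 11), and a merged region was taken as a member when the windows of 1 kb either side of protein-coding transcript starts (GENCODE M21, mm10) that it overlapped belonged to at least 2 genes on opposite strands. The rule found 1042 members among 144115 merged regions, or 0.723%. It used positions alone and no height. Chromosomes 6, 8 and 11 were left out because their peaks per Mb set the cell lines apart. Chromosome 6 held 128 peaks per Mb in SOX2-ON and 135 in SOX2-OFF but 42.2 in CEpiLC, chromosome 8 held 125, 123 and 45.9 in the same order, and chromosome 11 held 59.6, 61.1 and 180, against 41.4, 42.0 and 46.1 over the 16 autosomes kept.

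The study asked how the level of the transcription factor SOX2 shapes chromatin in epiblast progenitors exposed to WNT signalling. All cells derived from HM1, an embryonic stem cell line of strain 129, and were collected at 72h. They were held for 2 days in N2B27 with 10 ng/ml bFGF and 5 µM of the WNT secretion inhibitor LGK974, and the WNT agonist CHIR99021 was added from day 2 until day 3. SOX2-ON and SOX2-OFF are SOX2 TetON cells, of genotype Sox2-/-, in which a doxycycline-inducible Sox2 transgene sits at the HPRT locus. They express rtTA from Rosa26, as does the parental line used as wild type. The SOX2 TetON line was maintained as stem cells in 1 µg/ml doxycycline, which was kept during differentiation in SOX2-ON and withdrawn in SOX2-OFF. The CEpiLC sample was wild type, had no doxycycline treatment by its label, and is the caudal epiblast-like state. Each condition had 1 sample of 50000 cells, and both SOX2 TetON samples came from a single engineered line, so no test between conditions was possible and none was run. Every difference between lists below is a difference between 3 libraries, without a replicate to give its error. In bulk samples, access in fewer cells and less access per cell cannot be told apart.

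On the 16 autosomes the lists held 85388 peaks (SOX2-ON), 86563 (SOX2-OFF) and 95025 (CEpiLC). The lists carry no read totals, so the depth of each library is unknown. As a check of the labelled state, peaks lay over a start of all 7 caudal epiblast, 4 epiblast and 5 naive pluripotency genes examined in every list, and over 0 of 3 hepatocyte genes in any. Peaks also lay over starts of all 3 neuronal genes, 2 of 3 blood genes, 1 of 2 trophoblast and 1 of 2 endothelial genes in every list. They lay over 3, 4 and 4 of 4 fibroblast genes and 3, 0 and 2 of 3 muscle genes (SOX2-ON, SOX2-OFF, CEpiLC), so that open promoters alone do not identify the cell type.

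A head-to-head arrangement places the starts of neighbouring genes close together, pointing away from each other, so that both are transcribed outward from a shared stretch of DNA. Such pairs are known for housekeeping functions, among them DNA repair, mitochondrial proteins and the paired H2A and H2B histone genes, and their promoters are usually rich in CpG sites and poor in TATA boxes. Binding sites for NRF1, GABPA and other ETS factors, NF-Y and SP/KLF factors are known from promoters of this kind. An ATAC-seq peak over such a region measures access to the shared DNA and not the output of either gene, and the signal cannot be divided between them.

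The shared DNA itself is shown for named members whose outermost annotated starts pointed away from each other with at most 306 bases between them and no annotated exon in that stretch. The bases strictly between the starts are printed from the GRCm38 (mm10) reference, which is of strain C57BL/6J whereas the cells are of strain 129. They read 5′ to 3′ on the plus strand, so that the first gene of each name is transcribed leftward from the left end and the other rightward from the right end. Capitals mark exact matches, on either strand, to any of the 14 short motifs described further on. The first set holds a DNA repair pair known from textbooks, to show a stretch with promoter motifs, and pairs with the highest peaks. For Atm/Npat the central 300 of 306 bases are shown.
Atm/Npat, chr9:53536744-53537043: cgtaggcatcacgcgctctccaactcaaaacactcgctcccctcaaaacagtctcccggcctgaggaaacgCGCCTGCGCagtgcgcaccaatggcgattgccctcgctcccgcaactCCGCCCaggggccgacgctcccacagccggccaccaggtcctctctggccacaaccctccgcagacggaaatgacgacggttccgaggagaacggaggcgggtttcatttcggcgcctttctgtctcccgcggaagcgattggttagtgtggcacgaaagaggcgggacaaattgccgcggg
Hps5/Gtf2h1, chr7:46796065-46796102: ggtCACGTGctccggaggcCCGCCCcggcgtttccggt
2700097O09Rik/Srp54a, chr12:55080111-55080261: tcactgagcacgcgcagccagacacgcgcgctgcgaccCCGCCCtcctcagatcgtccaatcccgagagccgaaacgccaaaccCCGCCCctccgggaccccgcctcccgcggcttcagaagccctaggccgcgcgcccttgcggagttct
Qtrt2/Ccdc191, chr16:43889686-43889799: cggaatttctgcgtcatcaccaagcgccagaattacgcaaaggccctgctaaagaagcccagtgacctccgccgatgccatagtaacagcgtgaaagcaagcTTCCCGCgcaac

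The next set holds members with the largest differences between libraries, from a long histone promoter to stretches of 30 to 57 bases. For Hist1h2ba/Hist1h2aa, a testis-type H2B and H2A pair, the central 300 of 305 bases are shown.
Hist1h2ba/Hist1h2aa, chr13:23934159-23934458: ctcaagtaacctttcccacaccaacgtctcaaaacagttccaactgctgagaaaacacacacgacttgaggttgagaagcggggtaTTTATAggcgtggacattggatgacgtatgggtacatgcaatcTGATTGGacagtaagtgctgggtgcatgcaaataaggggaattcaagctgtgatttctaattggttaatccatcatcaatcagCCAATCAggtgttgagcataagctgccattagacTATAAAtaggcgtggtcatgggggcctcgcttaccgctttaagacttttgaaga
Noc4l/Ddx51, chr5:110653418-110653450: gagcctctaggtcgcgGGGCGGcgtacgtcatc
Mfap1a/Wdr76, chr2:121506666-121506722: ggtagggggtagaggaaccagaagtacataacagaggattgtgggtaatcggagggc
Vta1/Nmbr, chr10:14705561-14705590: gcttgtccgcgacgggtgcccgaaggagac

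The Atm/Npat stretch held 1 NRF1 and 1 SP/KLF match, Hps5/Gtf2h1 held an SP/KLF match and an E-box in 38 bases, and 2700097O09Rik/Srp54a held 2 SP/KLF matches. Qtrt2/Ccdc191 held an E2F match and Noc4l/Ddx51 an SP/KLF match. The histone stretch held 2 NFY and 2 TATA matches, with a TATA match toward each gene and the NFY matches between them. The stretches of Mfap1a/Wdr76 and Vta1/Nmbr held no exact match to any of the 14, which says only that these letters are not in these bases. Over all 455 divergent members with 30 to 300 bases between their starts, 361 stretches (79.3%) held at least 1 of the motifs and 326 (71.6%) held an NRF1, ETS, NFY or SP/KLF match.

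The members held 2072 coding genes. Of the 1042 regions, 1017 overlapped the windows of 2 genes, 23 of 3 and 2 of 4. Each member was named by its opposite-strand pair with the smallest distance between outermost starts, the minus-strand gene first, which gave 1027 distinct pairs, 15 of them held by 2 separate regions. The outermost starts pointed away from each other without overlap in 683 members (65.5%, Wilson 95% interval 62.6 to 68.4%), called divergent here, and the transcripts overlapped at their 5′ ends in 359. Divergent starts lay a median of 150 bp apart (quartiles 77.5 and 320 bp), from 3 bp at Dhrs1/Nop9 (fold enrichment of 3.13, 2.54 and 2.27 in SOX2-ON, SOX2-OFF and CEpiLC) to 2949 bp at Cntfr/Il11ra1 (2.23, 1.99 and 2.18). With the closest opposite starts in place of the outermost ones, 832 members (79.8%) were divergent with a median of 130 bp, since 149 of the overlapping members also had an inner, non-overlapping pair of starts. Merged regions were a median of 1560 bp wide (quartiles 1328 and 1892 bp), and the widest, Hist1h3a/Hist1h1a, spanned 4937 bp.

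For the 623 divergent members with starts up to 1000 bp apart, 1 peak covered both starts in 94.5% of cases in SOX2-ON (92.5 to 96.1%), with 95.5% (93.6 to 96.9%) in SOX2-OFF and 94.2% (92.1 to 95.8%) in CEpiLC. The centres of these peaks lay a median of 106 bp (SOX2-ON), 116 bp (SOX2-OFF) and 130 bp (CEpiLC) from the midpoint of the starts, with a median signed offset of 10.5, 15 and 11.5 bp toward the plus-strand gene. The median reach past the plus-strand start (576, 625 and 612 bp) was close to that past the minus-strand start (564, 611 and 610 bp). Single peaks were less even, with median reaches of 682, 732 and 748 bp on the longer side and 468, 489 and 473 bp on the shorter. At 500 bp to the left and right of the midpoint, 79.8% and 78.8% of these members still lay in a SOX2-ON peak, and at 1000 bp 10.9% and 11.7% did.

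Almost every member was open in all 3 libraries. Peaks of all 3 lists covered 1023 members (98.2%, 97.2 to 98.8%), against 79.0% (78.3 to 79.6%) of the 14454 regions over the start windows of a single coding gene and 31.2% (31.0 to 31.4%) of all merged regions. SOX2-ON lacked a peak at 15 members where 42.1% of all merged regions had none, SOX2-OFF at 13 (40.3%) and CEpiLC at 5 (36.2%). From the annotation side, 78.6% of all 16942 coding genes on these chromosomes had a region at a start window. These genes include 974 olfactory receptor genes, of which 139 had a region. Counted by pairs instead, 594 of the 604 head-to-head coding pairs with outermost starts up to 1 kb apart had a member (98.3%). The 10 pairs without one were 4931428L18Rik/Pih1d3, Fam217a/4933417A18Rik, Hist1h2ap/Hist1h2br, Hist1h2bq/Hist1h2ao, Gm20075/Gm17190, Ccnt1/4930415O20Rik, Gml/Gml2, Dgcr2/Tssk1, Cabp4/Gpr152 and Slc30a3/Dnajc5g. The histone pairs among them belong to a family of near-identical copies, to which reads cannot always be assigned.

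The 19 members that missed a list were weak where they were present. Their highest fold enrichment in any list ran from 1.39 to 2.05, with a median of 1.54, and 15 of the 19 had 6 or fewer CpG sites in the 300 bp at their starts. Peaks of CEpiLC alone covered 10 of them, including Rnf151/Rps2, the latter a ribosomal protein gene, with a fold enrichment of 1.44, and 4930442H23Rik/Dapk3 with 1.45. Among members that SOX2-ON missed, A330070K13Rik/Caln1 had the highest −log10 p in another list, with a fold enrichment of 1.59 in SOX2-OFF (−log10 p of 4.16) and 2.05 in CEpiLC (6.75). At Cd3g/Cd3d, which encode chains of the T-cell receptor complex, SOX2-OFF alone had a peak, at 1.60 (4.17), and at Ifit1bl2/Ifit1, of the interferon-induced Ifit family, it was again alone at 1.57 (3.88). Folr1/Anapc15, a folate receptor and a subunit of the anaphase-promoting complex, lacked a peak in SOX2-OFF alone, with 1.51 and 1.73 in the others, Stap2/Mpnd had a peak in CEpiLC alone at 1.49, and 1 of the 2 regions of Best1/Rab3il1 lacked a peak in CEpiLC alone, with 1.60 and 1.63. Crx/Crxos, a photoreceptor factor and its opposite-strand neighbour, had 1.47 in SOX2-OFF and 1.80 in CEpiLC. The region of Crx/Crxos lay beside the outermost starts of its pair and covered neither, as did that of 4930442H23Rik/Dapk3. A missing peak there does not describe access at those starts. Among the regions of their lists these peaks stood at percentile 42.3 (SOX2-OFF) and 78.4 (CEpiLC) for A330070K13Rik/Caln1, 13.9 and 62.8 for Crx/Crxos, 43.3 for Cd3g/Cd3d and 38.0 for Ifit1bl2/Ifit1, all below the percentile of the median member.

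The height of a region in a list was the mean fold enrichment of its peaks over local background, weighted by their lengths. Members stood among the highest regions of each library. The median member had a height of 4.78 in SOX2-ON (quartiles 3.89 and 5.43), with 3.64 in SOX2-OFF (3.05 and 4.15) and 3.10 in CEpiLC (2.60 and 3.63). In the same order, which is kept for all values given as 3 in turn, the medians were 3.51, 2.92 and 2.56 at single-gene promoters and 1.71, 1.60 and 1.70 at regions over no coding start window. The ratio of the medians, members over single-gene promoters, was 1.36, 1.25 and 1.21. It was 1.27, 1.18 and 1.14 against the single-gene promoters covered in all 3 lists, and 1.24, 1.17 and 1.13 against those with a peak over their outermost start, a choice made after seeing the data. Ranked within each library, the median member stood at percentile 95.2, 94.8 and 94.7 of all its regions. Fold enrichment grows with the quality and depth of a library, so the fall from SOX2-ON to CEpiLC at members and single-gene promoters cannot be told apart from a difference between the libraries. Members were only slightly wider than single-gene promoters, with median covered widths of 1367, 1442 and 1449 bp against 1273, 1386 and 1288 bp. A wide region can touch the windows of more genes, so width is partly set by the rule. How far height is set by the rule was not tested.

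**Figure D1:**
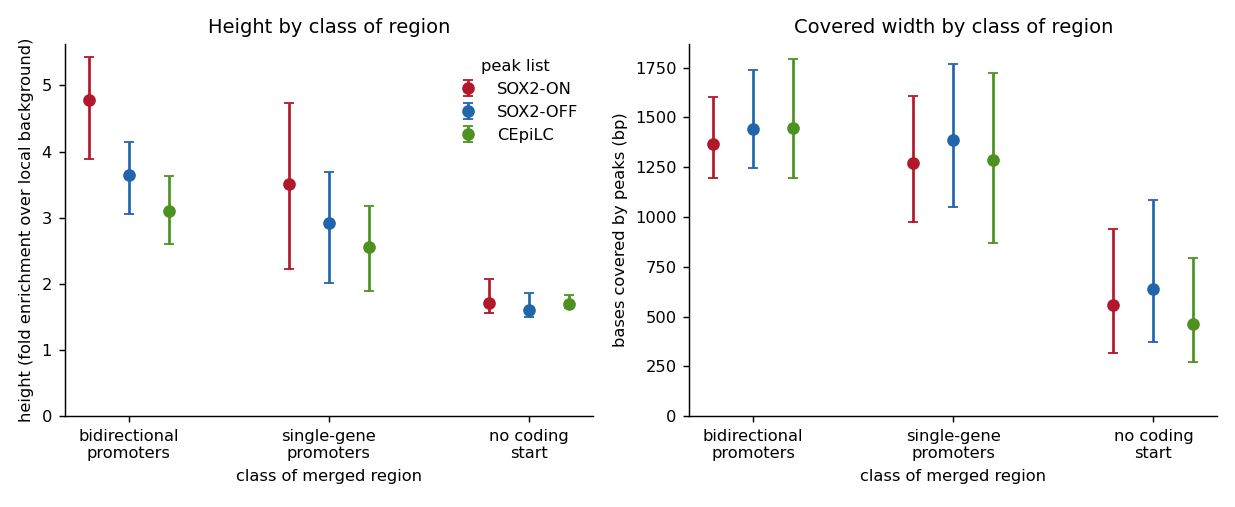
Height (left, fold enrichment over local background) and bases covered by peaks (right, bp) of merged regions in the 3 peak lists, for bidirectional promoters, single-gene promoters and regions over no coding start. Points are medians and bars run from the lower to the upper quartile over regions. Members had the highest median in every list, at 4.78, 3.64 and 3.10.

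CpG content differed between these classes. The 300 bp at the midpoint of the closest opposite starts held a median of 24.0 CpG sites (quartiles 16 and 31.0) in members and 16 (6 and 28.0) at the start of single-gene promoters, with a median GC content of 62.7% and 60%. By the common island limits of at least 50% GC and an observed over expected CpG ratio of at least 0.6, 76.9% of members (74.2 to 79.3%) and 50.2% of single-gene promoters (49.4 to 51.0%) were CpG rich. The differences were smaller against the single-gene promoters covered in all 3 lists. These had a median of 21.0 CpG sites, a median GC content of 63.0%, slightly above that of members, and 62.8% (61.9 to 63.7%) were CpG rich. All coding promoters were therefore split into 4 bands of CpG count, of near equal size over both classes, and the classes compared within each. In the band with the fewest sites, 0 to 6, the ratio of median heights, members over single-gene promoters, was 1.69, 1.48 and 1.29. In the next, 7 to 17 sites, it was 1.61, 1.37 and 1.28. It was 1.17, 1.13 and 1.11 at 18 to 29 sites, and 1.10, 1.08 and 1.07 at 30 to 66. Members thus had the higher median in every band of every list, by a margin that was smaller where CpG sites were many. Presence in all lists followed the same order, with single-gene regions beside a start included. Among promoters with 0 to 6 sites, 84.0% of 94 members (75.3 to 90.1%) and 45.1% of 3796 single-gene promoters (43.5 to 46.7%) were covered in all 3 lists, whereas at 18 to 29 sites 437 of 437 members and 98.8% of single-gene promoters were. Width also differed most where CpG sites were few. In SOX2-ON the median member covered 1461 bp and the median single-gene promoter 880 bp at 0 to 6 sites, 1424 and 1196 bp at 7 to 17, 1317 and 1300 bp at 18 to 29, and 1390 and 1412 bp at 30 to 66.

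**Figure D2:**
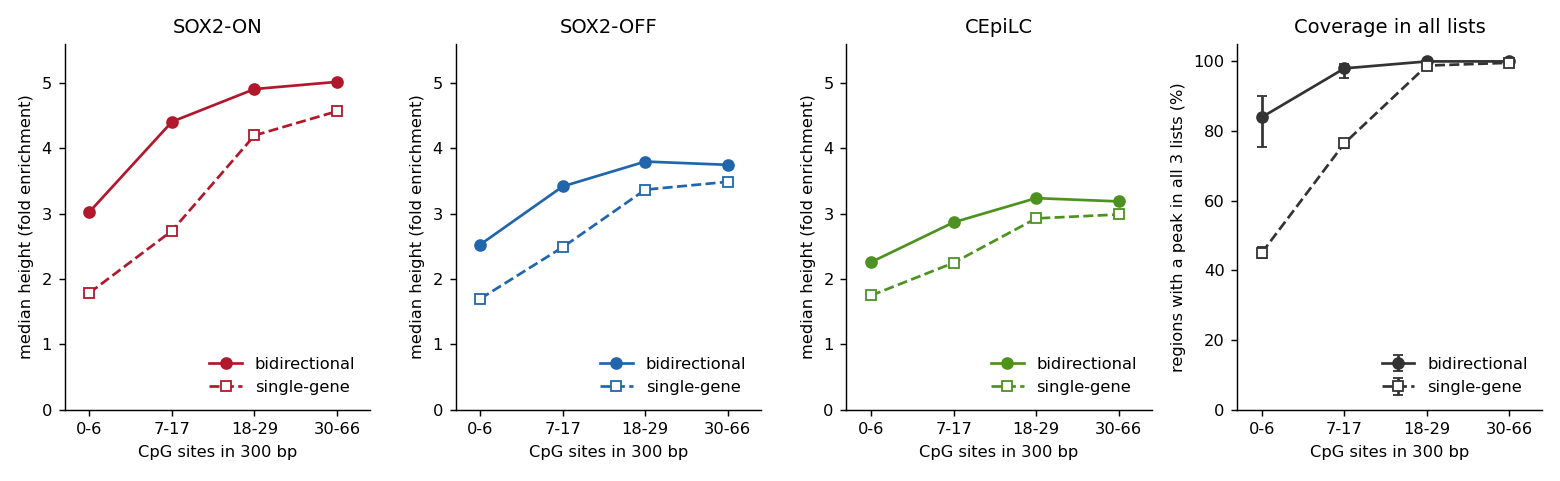
Median height (fold enrichment) in each list, and share of regions with a peak in all 3 lists (percent, Wilson 95% intervals), for bidirectional (filled circles) and single-gene (open squares) promoters in 4 bands of the number of CpG sites in 300 bp. In SOX2-ON the ratio of the medians is largest at 0 to 6 sites, with 3.03 and 1.79, and smallest at 30 to 66 sites, with 5.02 and 4.57.

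Height also varied with the spacing of the starts. Medians were alike from overlaps of up to 300 bp (4.94, 3.91 and 3.34, 147 members) through distances of 1 to 100 bp (4.92, 3.75 and 3.18, 228 members) and above 100 to 200 bp (4.98, 3.77 and 3.22, 181 members) to above 200 to 400 bp (5.04, 3.82 and 3.35, 132 members). They were lower above 400 to 1000 bp (4.31, 3.29 and 2.86, 82 members) and lowest at over 1000 bp (3.31, 2.61 and 2.35, 60 members), where the median covered width was largest in each list (1808, 2000 and 1863 bp). Members that overlapped by more than 300 bp had medians of 4.45, 3.48 and 2.96. Height here is an average over the covered bases, so a wider region can hold an equally tall summit at a lower mean, and the part of width in these values was not tested.

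**Figure D3:**
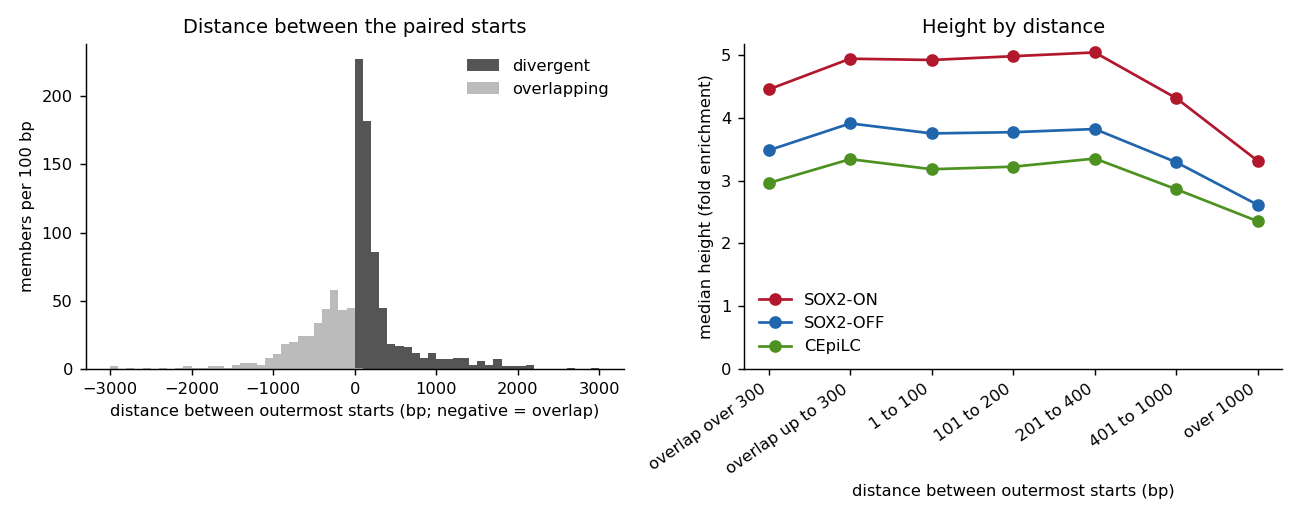
Left, number of members per 100 bp of distance between the outermost starts of the named pair, with overlaps as negative distances. Right, median height (fold enrichment) by distance in each list. Most members lie close to 0, and heights are lowest for the 60 members with starts over 1000 bp apart.

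The sets of the 3 tallest members differed between the lists, with 1 shared by SOX2-ON and SOX2-OFF, 1 by SOX2-ON and CEpiLC and 0 by SOX2-OFF and CEpiLC. Hps5/Gtf2h1 (chr7:46795381-46796712), which joins a subunit of a lysosome-related organelle complex to a subunit of the general transcription factor TFIIH, had a height of 7.49, 5.41 and 4.47. 2700097O09Rik/Srp54a (chr12:55079665-55080970), the latter a subunit of the signal recognition particle, had 7.46, 5.54 and 5.09. Cetn4/Bbs12 (chr3:37312191-37313008), a centrin and a chaperonin-like protein of the primary cilium, had the highest value of all members in SOX2-ON and SOX2-OFF, at 7.71 and 6.29, and 5.07 in CEpiLC. All of these stood at percentile 99.7 or higher of the regions of each list. In SOX2-OFF the other members among the top were Enkur/Thnsl1 (5.99) and Qtrt2/Ccdc191 (5.61), and in CEpiLC Eri2/Rexo5 (5.16), both predicted exonucleases, and Nudcd1/Eny2 (5.13), the latter a subunit of the SAGA and TREX-2 complexes.

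Head-to-head pairs known from textbooks had heights from below to well above the median member. Mcm4/Prkdc (chr16:15636692-15638138), a replicative helicase subunit and the DNA-dependent protein kinase, had 6.60, 4.83 and 4.01. Ppat/Paics, which encode enzymes of purine synthesis, had 5.93, 4.42 and 3.64. Both lay above the median member in every list.
Atm/Npat (chr9:53536150-53537679), the kinase of the double-strand break response and a coactivator of histone genes, had 5.46, 4.30 and 3.86, again above the median member in each list. The mitochondrial chaperonins Hspd1/Hspe1 had 5.43, 3.87 and 3.43, and Mrps12/Sars2, a mitochondrial ribosomal protein and a mitochondrial tRNA synthetase, had 5.12, 3.74 and 3.15. Gart/Son, a purine synthesis enzyme and a splicing cofactor, had 4.74, 3.49 and 3.54. The lowest of this group were Tsc2/Nthl1, a growth regulator and a base excision repair enzyme, at 3.43, 2.88 and 2.48, Col4a4/Col4a3, chains of basement membrane collagen, at 2.95, 3.08 and 2.42, and Surf1/Surf2 at 2.75, 2.38 and 2.19. Only Col4a4/Col4a3 among them was higher in SOX2-OFF than in SOX2-ON on the deposited scale.

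To compare lists, log2 heights of the 44977 regions covered in all 3 were quantile normalized, which gives every library the same distribution. On this scale members differed little between conditions. The median log2 difference over 1023 members was 0.04 for SOX2-ON minus SOX2-OFF, 0.06 for SOX2-ON minus CEpiLC and 0.02 for SOX2-OFF minus CEpiLC, and 95% of members lay between −0.29 and 0.33, −0.29 and 0.44, and −0.24 and 0.31. The first of these medians was −0.01 when height was taken as the pileup solved from fold enrichment and p, so that its sign rests on the measure. The ranks of members were similar in the 3 libraries, with Spearman's rho of 0.906, 0.861 and 0.926 in the same order over 1023 regions, which share their sequence and their local background within each library.

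At a threshold of 1.5-fold, 1 member was higher and 2 were lower in SOX2-ON than in SOX2-OFF, against 1.62% and 1.09% of all shared regions. Between SOX2-ON and CEpiLC the counts were 4 higher (background 2.33%) and 3 lower (1.64%), and between SOX2-OFF and CEpiLC 1 higher (0.631%) and 0 lower (0.547%). With 1 sample per group none of these counts has a test. As shares, 0.0978% of members were higher and 0.196% lower in SOX2-ON than in SOX2-OFF, against 0.175% and 0.298% of single-gene promoters covered in all lists. The counts depend on the scaling. With lists aligned only by their medians, members had a median log2 difference of 0.31 for SOX2-ON minus SOX2-OFF and 0.48 for SOX2-ON minus CEpiLC. The median over all shared regions was 0.04 and 0.00. Then 27 and 278 of the 1023 members were called higher in SOX2-ON, against 3.25% and 8.34% of all shared regions. Members stood farther above regions over no coding start in SOX2-ON (medians of 4.78 and 1.71) than in SOX2-OFF (3.64 and 1.60) or CEpiLC (3.10 and 1.70), which a shift of the median leaves in place, so the direction of a difference at a tall promoter rests on the choice of scale.

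**Figure D4:**
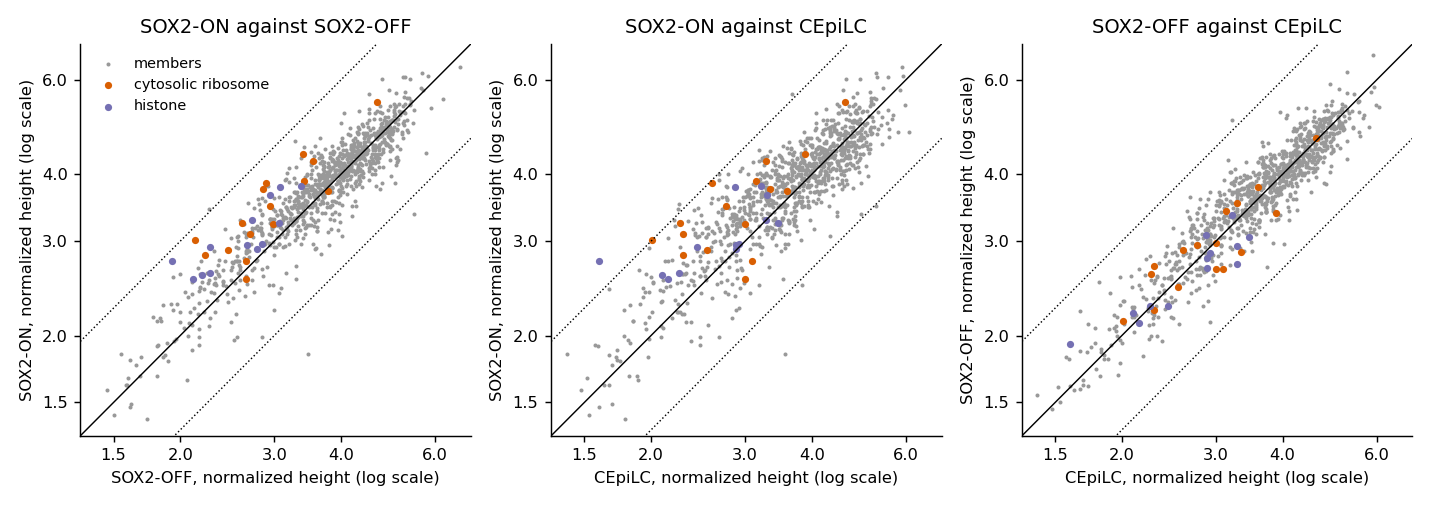
Quantile-normalized heights (fold enrichment, log scales) of the 1023 members covered in all lists, for each pair of lists. Each point is a member, with cytosolic ribosomal protein and histone pairs in colour, the solid line marks equality and dotted lines a 1.5-fold difference. Few members lie beyond the dotted lines, and both coloured groups lie mostly above the solid line where SOX2-ON is on the vertical axis.

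A730015C16Rik/Kti12 (chr4:108847522-108849123), the latter an Elongator-associated factor, had the largest fall in SOX2-ON. Its heights were 1.88, 3.37 and 3.02, and its normalized heights of 1.85, 3.47 and 3.57 made it 1.88-fold higher in SOX2-OFF and 1.94-fold higher in CEpiLC than in SOX2-ON. The library of SOX2-ON stood alone here, and the other two values were close. Vta1/Nmbr (chr10:14703493-14705919), an endosomal sorting factor and the neuromedin B receptor, had 4.06, 5.24 and 4.18, and after normalization 3.37, 5.47 and 4.94, or 1.63-fold higher in SOX2-OFF than in SOX2-ON. The Vta1/Nmbr stretch printed above is 30 bases long. Masp1/Rtp4, a complement protease and an interferon-induced gene, had normalized heights of 1.99, 2.84 and 2.68 and stayed below the threshold at 1.43-fold.

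Cln3/Apobr (chr7:126582709-126584971), of which Cln3 encodes a lysosomal membrane protein, was the member called higher in SOX2-ON than in SOX2-OFF. Its heights were 4.18, 2.24 and 2.12 and its normalized heights 3.45, 2.26 and 2.25, a ratio of 1.52 over SOX2-OFF and 1.53 over CEpiLC. The peak covered 1215 bp in SOX2-ON, 2263 bp in SOX2-OFF and 1242 bp in CEpiLC, and the part of this width in the height was not tested. Hist1h2ba/Hist1h2aa (chr13:23933534-23934937), the testis-type pair whose shared stretch is printed above, had heights of 3.15, 1.92 and 1.66 over 1370, 1286 and 257 bp, and was 1.43-fold higher in SOX2-ON than in SOX2-OFF and 1.72-fold higher than in CEpiLC. Ndst1/Rps14, a heparan sulfate enzyme and a ribosomal protein, had 3.51, 2.11 and 1.95 over 1411, 2836 and 2530 bp, or 1.41-fold over SOX2-OFF. At Cln3/Apobr and Ndst1/Rps14 the SOX2-ON peak was narrower than that of SOX2-OFF.

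The other members beyond the threshold against CEpiLC were higher in SOX2-ON at Gm9857/Henmt1 (1.56-fold, Henmt1 being the methyltransferase of piRNAs) and Klhl9/Gm26566 (1.54-fold, Klhl9 being a ubiquitin ligase adaptor), with SOX2-OFF between the other lists at both. Lrrc34/Lrriq4 (1.55-fold) and Wdr3/Gdap2 (1.51-fold, Wdr3 being a ribosome biogenesis factor) were higher in CEpiLC than in SOX2-ON, again with SOX2-OFF between. Itgb3bp/Efcab7 (chr4:99828878-99829907), of which Itgb3bp encodes a centromere protein, was 1.57-fold higher in SOX2-OFF than in CEpiLC, with normalized heights of 3.85, 5.04 and 3.22. Noc4l/Ddx51, both of ribosome biogenesis, had normalized heights of 4.01, 3.63 and 2.68, and Fgf21/Fut1, a metabolic hormone and a fucosyltransferase, had 1.96, 2.52 and 1.81. Both stayed short of the threshold. Plgrkt/Cd274, the latter encoding the checkpoint ligand PD-L1, had 2.25, 2.12 and 2.92, Mfap1a/Wdr76 had 3.16, 2.97 and 4.03, and Serinc4/Hypk had 3.53, 2.68 and 3.74. In these last 3 CEpiLC was above SOX2-OFF by 1.37, 1.36 and 1.40 times, short of the threshold.

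Lists of genes were then counted among the members. Over all coding genes on these chromosomes, 2072 of 16942 (12.2%, 11.7 to 12.7%) lay in a member. Mitochondrial ribosomal protein genes had the largest share among the lists of housekeeping enzymes and complexes, at 29 of 58 (50%, 37.5 to 62.5%), and replication-dependent histone genes reached 31 of 60 (51.7%, 39.3 to 63.8%). RNA polymerase subunits followed with 10 of 25 (40.0%), DNA repair genes with 27 of 75 (36.0%, 26.1 to 47.3%), DNA replication genes with 14 of 40 (35%), respiratory chain genes with 29 of 85 (34.1%), chaperones and chaperonins with 24 of 74 (32.4%), aminoacyl-tRNA synthetases with 9 of 31 (29.0%), proteasome genes with 9 of 37 (24.3%) and cytosolic ribosomal protein genes with 16 of 66 (24.2%). Zinc finger genes of the Zfp series, at 28 of 321 (8.72%, 6.10 to 12.3%), and olfactory receptor genes, at 0 of 974 (up to 0.393%), had the lowest shares of the large lists. These intervals cover counting error only, the lists differ in which genes have any open region, and neighbouring genes are not independent of each other.

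**Figure D5:**
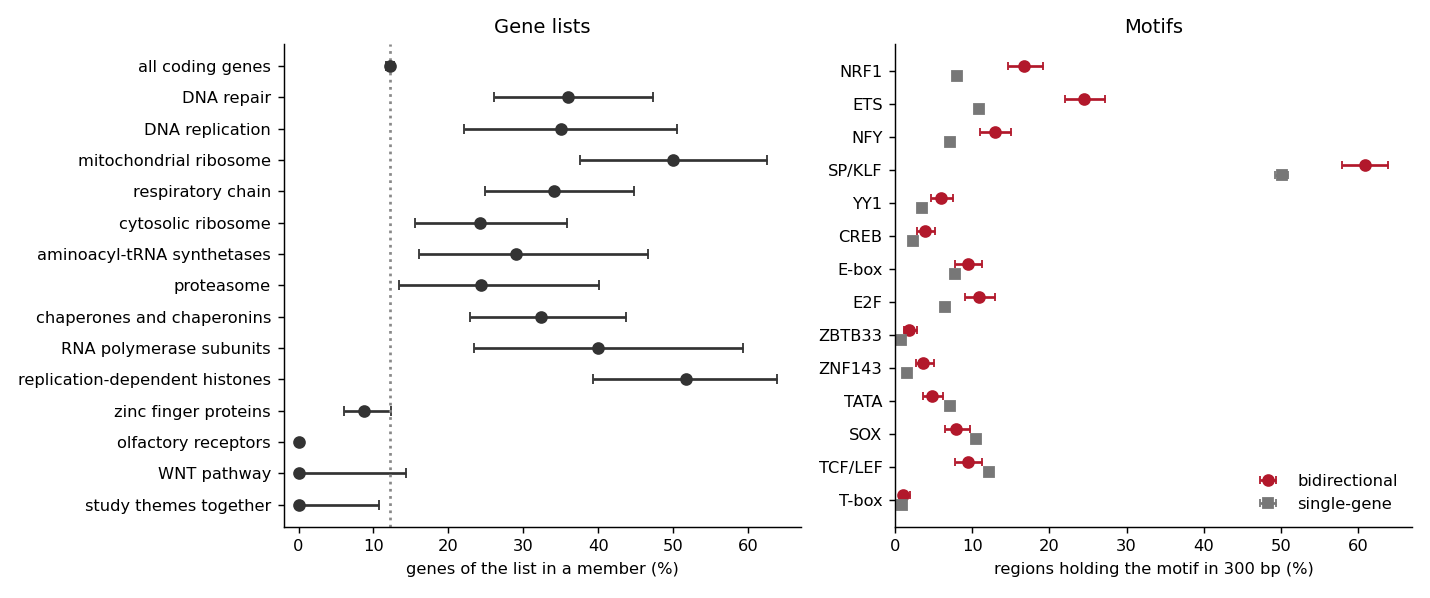
Left, percent of the genes of each list that lay in a bidirectional member, with the dotted line at the 12.2% of all coding genes. Right, percent of bidirectional members and of single-gene promoters whose 300 bp at the starts held each motif. Bars are Wilson 95% intervals. Mitochondrial ribosomal and histone genes reach about 50%, and ETS and NRF1 motifs are the most frequent in members relative to single-gene promoters among the common motifs.

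DNA repair members ran from 2.91 to 7.42 in SOX2-ON, then from 2.16 to 5.04 (SOX2-OFF) and from 2.15 to 4.99 (CEpiLC), and 19, 18 and 17 of the 27 lay above the median of all members. Zswim9/Lig1, of which Lig1 encodes the replicative DNA ligase, was the tallest in SOX2-ON, with 7.42, 5.00 and 4.74. Acot13/Tdp2 had 6.40, 4.56 and 3.75, and Tdp2 encodes an enzyme that removes topoisomerase adducts. Mus81/Cfl1, a structure-specific nuclease and the actin-severing protein cofilin, was the lowest, with 2.91, 2.16 and 2.15 and starts 2053 bp apart. Polh/Xpo5 (6.14, 4.65 and 3.56), Palb2/Dctn5 (5.70, 4.37 and 3.66) and Hscb/Chek2 (4.93, 3.85 and 3.59) lay between them.

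DNA replication members had medians of 5.39, 4.03 and 3.55, the highest medians of any list in each library. Pxmp2/Pole, of which Pole encodes the catalytic subunit of DNA polymerase epsilon, was the lowest of them in every list (4.42, 2.80 and 2.66). Pole3/4933430I17Rik, of which Pole3 encodes a small subunit of the same enzyme, was the highest in SOX2-ON (6.95, 4.83 and 4.10). The origin recognition genes Orc1, Orc3 and Orc4 shared members with Prpf38a (5.30, 4.09 and 3.09), Rars2 (4.56, 3.71 and 3.18) and Mbd5 (5.21, 4.39 and 3.97). In all 14, SOX2-ON was the highest of the lists on the deposited scale, as it was for the median of every class.

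Of the 28 members with a mitochondrial ribosomal protein gene, Mrpl46/Mrps11 paired genes of the list with each other, with 4.26, 3.86 and 3.03 and starts 30 bp apart. The tallest in SOX2-ON and SOX2-OFF was Mrpl32/Psma2 (6.67, 5.15 and 4.05), which adds a proteasome subunit, and the lowest Eme2/Mrps34 (2.38, 1.92 and 1.79). Among respiratory chain members, Sdha/Ccdc127, with the flavoprotein of succinate dehydrogenase, had 7.04, 4.70 and 3.84, the highest of the list in SOX2-ON. Cox19/Cyp2w1 was covered in CEpiLC alone. The pairs Mrpl47/Ndufb5 (6.12, 4.67 and 4.26) and Ndufs6/Mrpl36 (4.01, 3.22 and 2.60) joined genes of the mitochondrial ribosome and of complex I. Among chaperone members, Mrpl18/Tcp1 (5.93, 4.76 and 4.10) and Tsacc/Cct3 (5.48, 4.15 and 3.58) held subunits of the cytosolic chaperonin, and Hspb2/Cryab, small heat shock proteins of muscle and lens, was the lowest at 1.87, 1.86 and 1.71.

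Histone members differed from the median member in several measures. All 13 were divergent and lay below the median member in every list, with medians of 3.43, 2.67 and 2.55 and ranges of 2.85 to 4.70, 1.92 to 3.26 and 1.66 to 2.94. They were wide, with median covered widths of 1837, 2450 and 2501 bp against 1367, 1442 and 1449 bp over all members, and their 300 bp windows held a median of 8 CpG sites against 24.0. The NFY motif CCAATCA was found in 10 of the 13 and the TATA motif in 10, against 12.9% and 4.70% of all members. The ETS, NRF1 and E2F motifs were found in 0 of the 13. Among single pairs, Hist1h2ac/Hist1h2bc had 4.70, 3.26 and 2.76, Hist1h2an/Hist1h2bp had 4.67, 3.01 and 2.53, and Hist1h2ag/Hist1h2bj had 3.39, 2.25 and 2.25. These genes are near-identical copies, so reads from one may be placed at, or withheld from, another, and each height is uncertain for that reason.

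On the normalized scale 13 of 13 histone members were higher in SOX2-ON than in SOX2-OFF, with a median log2 difference of 0.23 (0.05 to 0.51) against 0.04 over all members, and 12 of 13 were higher than in CEpiLC (median 0.21, from −0.09 to 0.78, against 0.06). Over all members 61.8% and 63.3% were above 0 in these comparisons. Some of the 12 were barely above CEpiLC, with 0.00 after rounding at Hist1h2ae/Hist1h2bg and Hist1h3c/Hist1h2bb. Bola1/Hist2h2ab and Hist1h2bh/Hist1h3f had 0.03, also below the 0.06 of all members. The 15 single-gene promoters of the histone list had medians of 0.04 over SOX2-OFF (10 of 15 above 0) and 0.13 over CEpiLC (9 of 15). With median scaling the histone members lay 0.07 above the median of all members against SOX2-OFF and 0.08 below it against CEpiLC (0.40 and 0.48), so their standing among members against CEpiLC rests on the scaling. The 16 cytosolic ribosomal protein members covered in all lists had a median of 0.24 over SOX2-OFF (−0.06 to 0.50, 14 of 16 above 0) and 0.27 over CEpiLC (−0.23 to 0.58, 14 of 16 above 0), and the 49 single-gene promoters of the same gene list had 0.21 and 0.25. The ribosomal pairs with the largest differences over SOX2-OFF were Ndst1/Rps14 (0.50), Med22/Rpl7a (0.42, with heights of 4.76, 2.83 and 2.36), Rps28/Ndufa7 (0.39, with 4.61, 2.81 and 2.85) and Rpl15/Nkiras1 (0.36, with 5.42, 3.29 and 3.25). Rps27/Rab13 (−0.06, with 2.85, 2.61 and 2.63) and Rpl36al/Mgat2 (−0.02, with 4.57, 3.66 and 3.04) had values below 0. None of these single differences but that of Hist1h2ba/Hist1h2aa against CEpiLC reached 1.5-fold. With height taken as the solved pileup, the median over SOX2-OFF was −0.07 for histone members (3 of 13 above 0) and −0.05 for ribosomal members (6 of 16), so that both directions rest on fold enrichment as the measure. Fold enrichment divides the pileup by the local background and the pileup does not. The medians of the other lists against SOX2-OFF ran from −0.02 for aminoacyl-tRNA synthetases to 0.09 for RNA polymerase subunits.

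Motifs were counted as exact letters on both strands in windows of 300 bp. The window of a member was centred midway between its closest opposite starts, and that of a single-gene promoter on its outermost start. The windows are thus not alike, since a member's lies at the starts of 2 genes. The 14454 single-gene regions also outnumber the 13323 coding genes with a region at a start window, so some genes were counted more than once. The part of either in the ratios below was not tested. The ETS motif CCGGAAG was in 24.5% of members (22.0 to 27.2%) and 10.8% of single-gene promoters (10.3 to 11.3%), a ratio of 2.27, and the NRF1 motif GCGCANGCG in 16.7% (14.6 to 19.1%) and 7.99%, a ratio of 2.09. ETS factors such as GABPA and NRF1 are known regulators of nuclear genes for mitochondria. The rarer ZBTB33 motif TCTCGCGAG (1.82% and 0.685%) and ZNF143 motif CTACAANTC (3.65% and 1.47%) had ratios of 2.66 and 2.49. NFY (CCAATCA, 12.9% and 7.15%), YY1 (AANATGGCG, 5.95% and 3.47%), E2F (TTCCCGC, 10.8% and 6.41%) and CREB (TGACGTCA, 3.84% and 2.30%) had ratios from 1.67 to 1.80. The SP/KLF motif GGGCGG was the most frequent, in 60.9% and 50.1%, and the E-box CACGTG was in 9.40% and 7.74%.

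The motifs of SOX factors and of TCF/LEF, which act downstream of WNT, had lower shares in members. The SOX motif AACAANG was in 7.87% of members (6.39 to 9.66%) and 10.5% of single-gene promoters (9.98 to 11%), the TCF/LEF motif TCAAAG in 9.40% (7.78 to 11.3%) and 12.1% (11.6 to 12.6%), and the T-box motif AGGTGTGA in 1.06% and 0.899%. A match is a description of the letters and not a bound site. The TATA motif TATAAA was in 4.70% (3.58 to 6.16%) and 7.10% (6.69 to 7.53%). All 14 motifs were searched without allowing for CpG content, which differs between the classes, and a GC-rich motif has more chance of a match in a GC-rich window. Within members, divergent and overlapping pairs held NFY in 15.7% and 7.52% and NRF1 in 19% and 12.3%, while ETS was in 24.0% and 25.3%. Among lists of genes, ETS matches were in 11 of 28 mitochondrial ribosomal members and NRF1 in 7, E2F in 7 of 14 DNA replication members, and ZBTB33 in 3 of 17 cytosolic ribosomal members. Members that held an NRF1 motif had median heights of 5.23, 3.89 and 3.31 against 4.68, 3.60 and 3.05 without it, and those with a TATA motif 4.06, 3.02 and 2.76 against 4.82, 3.66 and 3.11.

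The genes listed for the study's own themes were absent from the members. Other genes of these themes were not searched for. Of 32 coding genes on these chromosomes named for naive pluripotency, anterior epiblast and neural, early streak and mesendoderm, or caudal epiblast and paraxial mesoderm identity, 0 lay in a bidirectional member (up to 10.7% by the Wilson interval), although all 32 had an open region at a start. Of 23 genes of the WNT pathway 0 did (up to 14.3%). The share was 12.2% over all coding genes and 15.6% over those with a region at a start window.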

How the data were processed

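ATAC-seq was measured in 3 samples, 1 per condition. The authors trimmed paired-end reads, aligned them to mm10 with BWA within the nf-core/atacseq pipeline, discarded reads of mitochondrial origin and used MACS2 to call broad peaks in each sample separately, as the study's methods and the submitters' processing notes state. The deposited lists hold, for each peak, a display score, a fold enrichment (a ratio over local background), and −log10 p and −log10 q values computed by the authors. Only the fold enrichment and, for one alternative, the −log10 p were used to measure height, and −log10 q to filter peaks. The files give no read counts, so intervals printed here are Wilson 95% intervals that cover counting error over regions or genes only.

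Peaks of the 3 lists on 16 autosomes were merged with bedtools 2.31.1. Starts of protein-coding transcripts came from GENCODE M21, and all gene symbols came from that annotation. Height was the length-weighted mean fold enrichment of a list's peaks in a region. Heights of regions in all 3 lists were quantile normalized on the log2 scale, and a member was called higher or lower at 1.5-fold. No test was run between conditions. Sequences were read with samtools 1.23.1 from GRCm38, whose chromosome names and lengths are those of mm10. Scripts ran in Python 3.11.15 with numpy 2.4.6, pandas 2.3.3 and scipy 1.17.1, and the steps were tested on simulated peaks and sequences. Named members were the 3 tallest in each list, the 3 largest differences for each pair of lists and direction, the 3 best supported members missing from each list, textbook head-to-head pairs, and the extremes of distance and width. Some members named by this rule are not reported here. Other members are named as examples from the gene lists, as extremes or pairs of special composition, after their values were seen. The members, the gene lists and the motifs were chosen with earlier results of these data known. Alternatives in the closing section varied the q-value cutoff, the start window, the transcripts, the measure of height, the scaling and the motif window.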

Additional observations from a re-analysis of the deposited data

Results flagged for a closer look

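The same rule found regions in data that no comparison above used. On chromosomes 6, 8 and 11, left out for their uneven peak density, it found 246 bidirectional regions, of which 239 (97.2%) had a peak in all 3 lists. Their median heights in SOX2-ON, SOX2-OFF and CEpiLC were 4.68, 3.52 and 3.01, and the ratios to single-gene promoters on the same chromosomes were 1.52, 1.36 and 1.29. On chromosome X, which was outside the rule, it found 29 bidirectional regions, 28 of them in all 3 lists.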

How the results depend on the processing

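No paired analysis was possible because every condition was represented by 1 sample, and for that reason no replicate could be left out. Depth is unknown, so a difference in height between libraries cannot be told apart from one in depth or quality. Of 173 alternatives run, 99 moved a value by less than its interval or a count by less than 1.5 times, and no ratio of heights fell to 1 or below. The cause of the other changes was not tested.

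Values are given in the order SOX2-ON, SOX2-OFF and CEpiLC unless stated. The share of members covered in all lists was 99.2% with start windows of 500 bp, 99.2% with 250 bp, and 96.8% with the starts of all transcripts of coding genes. Members without a peak numbered 4 and 5 in the SOX2-ON and SOX2-OFF lists with 500 bp and again 4 and 5 with 250 bp, and 23, 22 and 14 with all transcripts. With −log10 q of at least 2, SOX2-OFF missed 4, and with at least 5 the lists missed 6, 3 and 17. The ratio of median heights of members to single-gene promoters was 1.29, 1.20 and 1.15 at −log10 q of at least 2, and 1.22, 1.15 and 1.09 at 5. It was 1.33 and 1.23 in the SOX2-ON and SOX2-OFF lists with 500 bp, 1.32, 1.21 and 1.18 with 250 bp, 1.56, 1.42 and 1.33 with all transcripts, 2.00, 1.65 and 1.35 as pileup, and 1.24, 1.17 and 1.13 against single-gene promoters with a peak over the start, which was chosen after seeing the data.

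For members 1.5-fold higher or lower, median scaling gave 27 and 1 of 1023 for SOX2-ON over SOX2-OFF. The shares of all shared regions were 3.25% and 1.13%. For SOX2-ON over CEpiLC it gave 278 and 1, against 8.34% and 0.778% of all shared regions. Pileup gave 2 of 1023 higher in the first comparison, against 3.98% of all shared regions. In the second it gave 36 and 15, against 6.30% and 4.53%. For SOX2-OFF over CEpiLC it gave 10 and 2, against 1.75% and 1.57%. At −log10 q of at least 5 there were 2 of 997 members higher in the first, against 0.495% of all shared regions. In the second 11 were higher, against 0.913%, and in the last 1 was lower, against 0.614%. The highest fold enrichment of a region's peaks gave 2 higher in the first and 1 lower in the last, against 1.64% and 0.574%. Divergent members alone held 0 and 1 in the first, against 1.62% and 1.09% of all shared regions. They held 1 and 1 in the second, against 2.33% and 1.64%. Divergent members made up 60.3% with all transcripts and, with the closest starts, a choice made after seeing the data, 79.8% at a median of 130 bp.

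Motif shares followed the window. With 200 and 500 bp they were 13.5 and 20.9% for NRF1, 19.8 and 30.1% for ETS, 50 and 72.3% for SP/KLF, 4.13 and 8.25% for YY1, 7.20 and 13.2% for the E-box, 8.06 and 16% for E2F, 3.45 and 6.72% for TATA, 4.51 and 13.6% for SOX, and 5.76 and 15.9% for TCF/LEF. NFY was in 15.2% with 500 bp.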
